A study of Arabidopsis thaliana with 12 samples.

Results

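The genes described here are the 29 Aux/IAA auxin response repressor genes of Arabidopsis thaliana, IAA1 to IAA20 and IAA26 to IAA34, with ARF5, ARF6, ARF7, ARF8 and ARF19, the ARFs known to activate transcription. They were taken by locus and are 34 of the 25665 loci on the array. A probe was present for each of the 34. Of these, 33 were tested, each well above background on every array of 1 group or more. IAA15 was not well above background on any of the 12 arrays and was not tested. Another 8 tested members (IAA5, IAA6, IAA29, IAA30, IAA31, IAA32, IAA33 and IAA34) missed the background mark on at least 1 array, and 25 passed it on every array. Since a member that is near background in some groups had to be high in another to be tested, the counts of each comparison are also given over those 25.

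Aux/IAA proteins and the activating auxin response factors form the core of the transcriptional response to the plant hormone auxin. An Aux/IAA protein binds an ARF on DNA and recruits a TOPLESS corepressor, which keeps the target gene off. Auxin joins the Aux/IAA to a TIR1 or AFB receptor, the repressor is degraded through its degron (the short stretch the receptor binds), and the freed ARF switches the target on. Many Aux/IAA genes are themselves early targets of auxin, so the family is known both as a brake on the response and as a readout of it.

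The samples were whole Columbia-0 seedlings aged 3 weeks, in 3 groups of 4 arrays: wild type, plants carrying 35S:MYB106SRDX:NOS and plants carrying 35S:WIN1SRDX:NOS. MYB106 is a MIXTA-like MYB factor and WIN1 (SHN1 in RefSeq) an ERF factor, both known as activators of cuticle genes. Each was fused to SRDX, a short plant repression domain that turns an activator into a dominant repressor, and was driven by the 35S promoter, which is active in most tissues. All plants grew on MS agar with 1% sucrose at 23 °C in 16 h light and 8 h dark. Several seedlings from a shared plate were pooled per sample, and the number of independent transgenic lines was not given in the sources used here. No label names separate cultures for the replicates, so p-values measure only how these samples spread, which may in part be technical. In whole seedlings, fewer cells of a type and less RNA per cell cannot be told apart.

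Levels are log2 intensities minus that array's 75th percentile, in the order of replicates 1 to 4. They can be compared between groups for 1 gene but not between genes, since probes differ. A fold change is a difference of group means on the log2 scale with its standard error (SE) from limma, n = 4 arrays a group unless stated, and adjusted p is Benjamini-Hochberg over the 20267 loci tested. Where a pair of changes is given, MYB106SRDX comes first and WIN1SRDX second, both against wild type, and a difference between the lines is MYB106SRDX minus WIN1SRDX. A range in brackets after a change is its 95% interval. A gene is said to have risen or fallen where adjusted p was under 0.05. Both comparisons with wild type use the same 4 wild-type arrays, so their values stand side by side and are not independent.

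Between 59.3% and 64.2% of probes were well above background on each array, with no saturated spot. The median intensity of an array ran from 67.3 to 85.6 in MYB106SRDX, from 90.1 to 142 in WIN1SRDX and from 127 to 144 in wild type. WIN1SRDX replicate 2 had 181 outlier spots, and the other arrays had from 2 to 17. The part of these array differences in the changes below was not tested. The MYB106 probe stood at a mean of 4.17 ± 0.94 (SD, n = 4) in MYB106SRDX against -2.29 ± 0.65 in wild type, and the WIN1 probe at 5.60 ± 0.20 in WIN1SRDX against -7.62 ± 1.3 in wild type, where it was well above background on 2 of 4 arrays. Organ markers differed between the groups. Of 12 root markers (root hair, endodermis and root epidermis genes, and PYK10, a beta-glucosidase), 10 fell in MYB106SRDX, with a median log2 fold change of -5.08, while in WIN1SRDX 4 rose and 3 fell, with a median of 0.61. COBL9, EXPA18, CASP4, CASP5 and WER were well above background on none of the MYB106SRDX arrays, and CASP5 on none of the WIN1SRDX arrays. The summed linear level of the root markers ran from 12.8 to 37.2 in MYB106SRDX, from 34.8 to 59.6 in WIN1SRDX and from 30.7 to 33.6 in wild type, mostly from PYK10. Without PYK10, a split made after its values were seen, the sum ran from 0.0875 to 0.105, from 2.77 to 7.55 and from 3.34 to 4.55. Of 8 leaf markers, 1 fell in each line, and their summed level overlapped across the groups. The summed flower markers ran from 3.33 to 16.6 in MYB106SRDX, from 0.517 to 11.8 in WIN1SRDX and from 0.359 to 1.92 in wild type, and were highest on replicate 2 of each repressor line.

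In MYB106SRDX seedlings 23 of the 28 tested Aux/IAA genes fell, 1 (IAA18) rose and 4 did not pass the test. The median log2 fold change of the 28 was -2.70, against -0.05 for all genes. Over all genes, 52.2% passed in this comparison, 28.6% as lower and 23.6% as higher. Of the 12 root markers 10 also fell in this comparison, and their part in the members' count was not tested. Among the 25 members well above background on every array, 19 fell and 2 rose, and the 20 Aux/IAA genes among them had a median of -2.16. In a fit of the 17796 loci that passed the same mark, 4430 fell and 4445 rose. In WIN1SRDX seedlings 14 of the 28 Aux/IAA genes fell, 3 (IAA12, IAA18 and IAA31) rose and 11 missed the threshold. The median was -0.74 against 0.00 for all genes, of which 32.6% passed, 15.2% as lower and 17.4% as higher. Among the 25 members above background on every array, 10 fell and 3 rose, where 2686 and 3189 of the 17796 loci did. The 20 Aux/IAA genes among these members had a median of -0.64. Between the lines, 16 Aux/IAA genes were lower in MYB106SRDX than in WIN1SRDX and 2 (IAA10 and IAA34) were higher, with a median of -1.33 against -0.03 for all genes. Of all genes 42.6% passed, 24.2% as lower and 18.3% as higher. In that comparison 15 of the 25 members were lower and 1 was higher, against 3748 lower and 3444 higher of the 17796 loci. For the 20 Aux/IAA genes among these members the median was -1.08. The arrays of MYB106SRDX and wild type did not overlap for 27 of the 33 members (52.7% of all genes), those of WIN1SRDX and wild type for 23 (43%) and those of the lines for 18 (34.7%). Of the 25 members above background on every array, 20, 16 and 14 did not overlap in the same 3 comparisons.

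The scaling bears on these splits. Scaling each array to its median in place of its 75th percentile moved the median of all genes by 0.48 in MYB106SRDX against wild type and by 0.46 between the lines, and the share of calls that were higher went from 45.2% to 75.9% and from 43.1% to 77.1%. With the same change, the share of called members that were higher went from 7.14% to 17.9% and from 9.52% to 33.3%. Relative to all genes, the Aux/IAA median was -2.65 with the main scaling and -2.64 with the median in MYB106SRDX, and -1.3 with both between the lines. In the authors' deposited table the share higher over all genes was 66.5% in place of 53.4% for WIN1SRDX against wild type and 25.6% in place of 43.1% between the lines. Each of the 3 slides held all 3 groups, with only 1 or 2 arrays of each, so the medians within a slide rest on few arrays. Within slides 1, 2 and 3 the Aux/IAA median was -3.04, -2.75 and -2.25 in MYB106SRDX and -0.71, -0.74 and -0.67 in WIN1SRDX. Between the lines it was -1.02, -2.00 and -0.63. With slide as a block 27, 16 and 20 members passed in the 3 comparisons in place of 28, 20 and 21. The calls lost were IAA12 in both lines against wild type, IAA4, IAA16 and IAA34 in WIN1SRDX, and IAA34 between the lines. The count in WIN1SRDX also rested on single arrays: it was 13 without WIN1SRDX replicate 3 and 12 without wild-type replicate 1, 2 or 3.

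The background correction bears on the sizes of the low genes and on some calls. With normexp correction of the raw medians in place of the scanner's processed signal, the MYB106SRDX change was smaller for IAA1 (-4.32), IAA5 (-3.89), IAA6 (-4.44), IAA14 (-2.80), IAA17 (-5.19), IAA19 (-4.86), IAA29 (-4.89), IAA30 (-1.74) and IAA32 (-1.79). The WIN1SRDX change was smaller for IAA5 (-3.49), IAA6 (-4.42), IAA29 (-4.18), IAA30 (-1.13), IAA31 (0.86) and IAA32 (-1.36). Each of these kept its direction and its call, and each moved by over 1.5 times from the value given for it below. With normexp 25, 18 and 18 members passed in the 3 comparisons in place of 28, 20 and 21. The calls lost were IAA20, IAA31 and IAA33 in MYB106SRDX against wild type and IAA12, IAA18 and IAA34 in WIN1SRDX. Between the lines those of IAA20, IAA32 and IAA33 were lost, while IAA13 gained a call in WIN1SRDX. Leaving out 1 array also moved values by over 1.5 times. In MYB106SRDX without replicate 1, IAA6 was at -7.90 and IAA14 at -4.28. Without replicate 2 IAA5 was at -5.01, IAA14 at -3.03 and IAA28 at -3.70, and without replicate 3 IAA29 was at -6.14. In WIN1SRDX IAA29 was at -4.38 without replicate 2 and at -5.88 without replicate 3. The calls of these genes held.

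**Figure D1:**
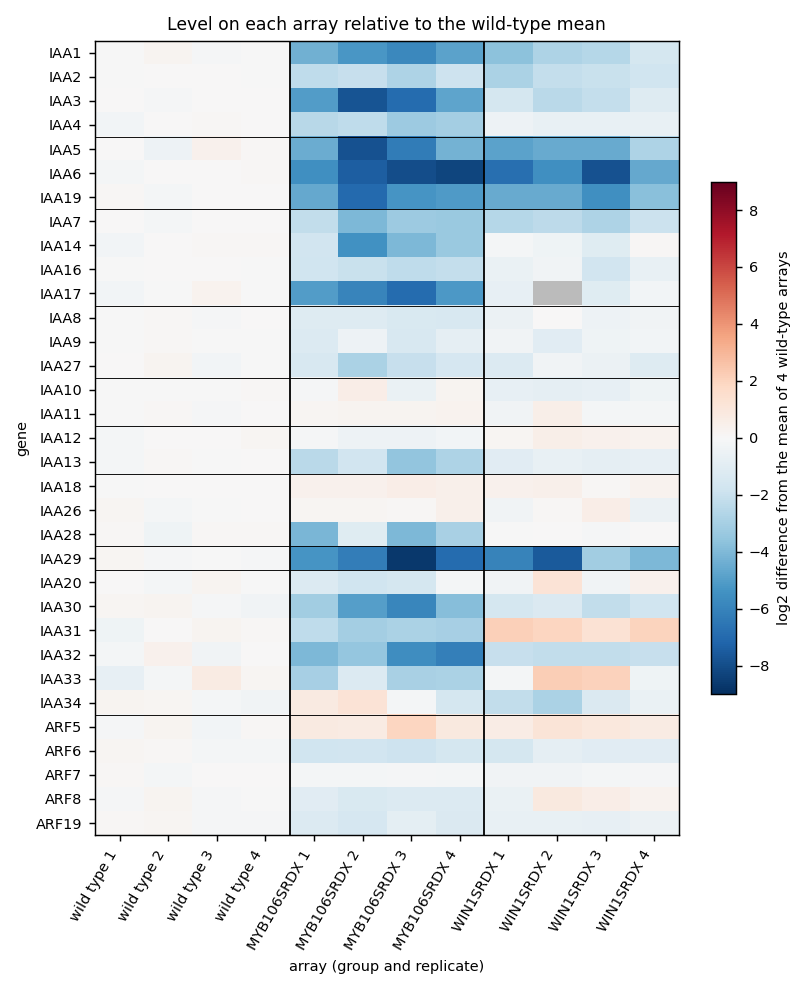
Level of the 33 tested genes on each of the 12 arrays as a log2 difference from the mean of the 4 wild-type arrays (blue lower, red higher, grey for a spot left out), with genes ordered by subfamily and the ARFs last. Most Aux/IAA rows are blue on the 4 MYB106SRDX arrays, the rows of IAA1, IAA2, IAA5, IAA6, IAA19, IAA7 and IAA29 are also blue in WIN1SRDX, and IAA31 and ARF5 are red there.

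**Figure D2:**
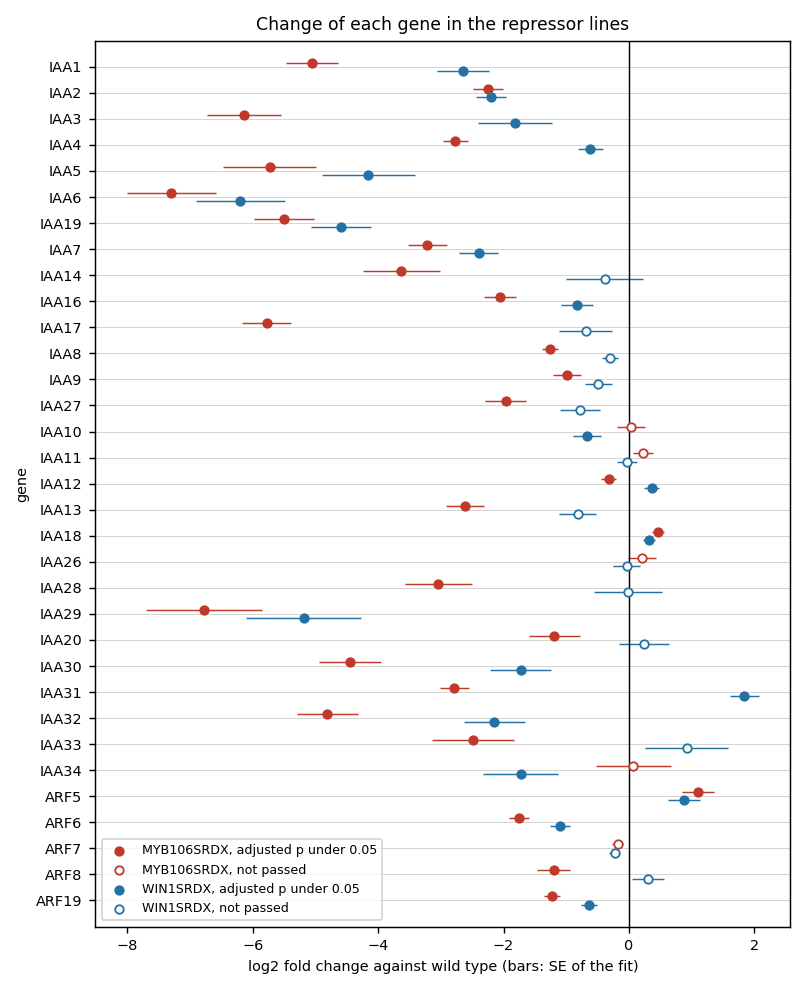
Log2 fold change against wild type for each tested gene in MYB106SRDX and WIN1SRDX, with the SE of the fit as bars and filled points for an adjusted p under 0.05. Both lines share the same wild-type arrays. IAA31 and IAA33 were not well above background in MYB106SRDX, so their points there are not measured sizes.

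IAA1 (AT4G14560), IAA2 (AT3G23030), IAA3 (AT1G04240) and IAA4 (AT5G43700) form 1 subfamily, and each fell in both lines. IAA1, an early auxin-induced gene, stood at 1.11, 1.39, 1.01 and 1.08 in wild type, at -3.16, -4.10, -4.68 and -3.70 in MYB106SRDX and at -2.51, -1.61, -1.44 and -0.45 in WIN1SRDX. The groups did not overlap, and the MYB106SRDX arrays were the lowest. Its fold changes were -5.06 ± 0.41 (adjusted p = 5.78e-06) and -2.65 ± 0.41 (adjusted p = 0.000979), and the difference between the lines was -2.41 ± 0.41 (adjusted p = 0.000968). IAA2, an early auxin-induced gene whose promoter is used as an auxin reporter, stood at 3.34, 3.4, 3.42 and 3.29 in wild type, 1.04, 1.31, 0.59 and 1.52 in MYB106SRDX and 0.52, 1.24, 1.34 and 1.54 in WIN1SRDX. Both lines lay below every wild-type array and overlapped each other. Its fold changes were -2.25 ± 0.24 (adjusted p = 2.88e-05) and -2.20 ± 0.24 (adjusted p = 0.000136). The difference between the lines was -0.05, with a 95% interval from -0.57 to 0.47, and 0.45 with median scaling.

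IAA3, also called SHY2, restrains growth of the root meristem. It stood at 3.32, 3.2, 3.32 and 3.29 in wild type, -1.76, -4.53, -3.67 and -1.50 in MYB106SRDX and 1.69, 0.87, 1.16 and 2.08 in WIN1SRDX. The groups were separate, and MYB106SRDX replicates 2 and 3 were lower than replicates 1 and 4. The MYB106SRDX change was -6.14 ± 0.59 (adjusted p = 1.65e-05) and the lines differed by -4.32 ± 0.59 (adjusted p = 0.000264). In WIN1SRDX the change was -1.82 ± 0.59 (adjusted p = 0.0355), a call lost without WIN1SRDX replicate 1, 2 or 3 or any 1 of the wild-type arrays (adjusted p from 0.0566 to 0.0833) and in the authors' deposited table (adjusted p = 0.0509). IAA4 stood at 2.95, 3.23, 3.3 and 3.22 in wild type, 0.67, 0.89, -0.09 and 0.15 in MYB106SRDX and 2.72, 2.49, 2.51 and 2.51 in WIN1SRDX. The WIN1SRDX arrays lay just under the wild-type range and the MYB106SRDX arrays far below both. Its fold changes were -2.77 ± 0.20 (adjusted p = 2.68e-06) and -0.62 ± 0.20 (adjusted p = 0.0328), and the lines differed by -2.15 ± 0.20 (adjusted p = 2.01e-05). The WIN1SRDX call was lost without WIN1SRDX replicate 2, 3 or 4 or wild-type replicate 2, 3 or 4 (adjusted p from 0.0637 to 0.0823), with median scaling (adjusted p = 0.0751) and in the authors' deposited table (adjusted p = 0.0861).

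IAA5 (AT1G15580), IAA6 (AT1G52830) and IAA19 (AT3G15540) fell steeply in both lines, and no test between the lines passed. IAA19, also called MSG2, acts with ARF7 (AT5G20730) in the bending of the hypocotyl. It stood at 2.32, 2.08, 2.23 and 2.28 in wild type, -2.37, -4.77, -3.09 and -2.88 in MYB106SRDX and -2.32, -2.31, -3.32 and -1.52 in WIN1SRDX. Every array of either line was more than 3 log2 units under the lowest wild-type array. The changes were -5.50 ± 0.48 (adjusted p = 9.42e-06) and -4.59 ± 0.48 (adjusted p = 0.000126), with a difference between the lines of -0.91 (95% interval -1.97 to 0.15). IAA5, an early auxin-induced gene, stood at 0.06, -0.44, 0.45 and 0.14 in wild type, -4.38, -7.82, -6.26 and -4.22 in MYB106SRDX and -4.77, -4.47, -4.47 and -2.70 in WIN1SRDX. WIN1SRDX replicate 4 was higher than the other repressor-line arrays, and MYB106SRDX, with the gene well above background on 3 of 4 arrays, spread the most. Its changes were -5.73 ± 0.74 (adjusted p = 0.000120) and -4.16 ± 0.74 (adjusted p = 0.00211), and the lines differed by -1.57 (-3.21 to 0.08), a difference that passed without MYB106SRDX replicate 4 (adjusted p = 0.0495).

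IAA6, also called SHY1, stood at 0.24, 0.42, 0.41 and 0.52 in wild type, -5.11, -7.03, -7.61 and -7.85 in MYB106SRDX and -6.37, -5.14, -7.47 and -4.23 in WIN1SRDX. No array of either line reached the wild-type range. It was well above background on 1 of 4 MYB106SRDX arrays and 3 of 4 WIN1SRDX arrays, so the low levels were near the detection limit. Its changes were -7.30 ± 0.71 (adjusted p = 1.74e-05) and -6.20 ± 0.71 (adjusted p = 0.000196), with -1.1 (-2.66 to 0.46) between the lines. IAA29 (AT4G32280), a gene known to be induced by shade and warmth, had a like profile. It stood at 1.38, 1.08, 1.15 and 1.1 in wild type, -4.11, -5.03, -7.52 and -5.73 in MYB106SRDX and -4.81, -6.41, -1.93 and -2.88 in WIN1SRDX. No repressor-line array reached the wild-type range, and the 4 WIN1SRDX arrays were widely spread. It was well above background on 3 of 4 arrays of each line, and changed by -6.78 ± 0.92 (adjusted p = 0.000164) and -5.19 ± 0.92 (adjusted p = 0.00207). The lines differed by -1.59 (-3.63 to 0.45), which passed without WIN1SRDX replicate 2 (adjusted p = 0.0382).

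IAA7 (AT3G23050), IAA14 (AT4G14550), IAA16 (AT3G04730) and IAA17 (AT1G04250) form the next subfamily, and each fell in MYB106SRDX, while in WIN1SRDX IAA7 and IAA16 fell. IAA7, also called AXR2, is known from a stabilised form that makes plants auxin resistant. It stood at 3.61, 3.34, 3.6 and 3.59 in wild type, 1.3, -0.49, 0.25 and 0.21 in MYB106SRDX and 0.99, 1.19, 0.79 and 1.58 in WIN1SRDX. Both lines lay below wild type and overlapped each other. Its changes were -3.22 ± 0.31 (adjusted p = 1.84e-05) and -2.40 ± 0.31 (adjusted p = 0.000415). Between the lines the difference was -0.82 (-1.51 to -0.13, adjusted p = 0.0557), which passed without MYB106SRDX replicate 1 (adjusted p = 0.00291) and in the authors' deposited table (adjusted p = 0.0230). IAA16 stood at 4.97, 5.08, 5.07 and 4.97 in wild type, 3.23, 3.02, 2.72 and 2.90 in MYB106SRDX and 4.45, 4.68, 3.32 and 4.34 in WIN1SRDX. WIN1SRDX replicate 3 was more than 1 log2 unit under the other arrays of that line, and the groups did not overlap. Its changes were -2.06 ± 0.25 (adjusted p = 7.55e-05) and -0.83 ± 0.25 (adjusted p = 0.0265), and -1.23 ± 0.25 (adjusted p = 0.00273) between the lines. The WIN1SRDX call was lost without any 1 of the wild-type arrays (adjusted p from 0.0537 to 0.0615) and with median scaling (adjusted p = 0.0588).

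IAA14, also called SOLITARY-ROOT, blocks the start of lateral roots when stabilised. It stood at -0.22, 0.03, 0.16 and 0.12 in wild type, -1.68, -5.43, -4.05 and -3.29 in MYB106SRDX and -0.19, -0.37, -1.05 and 0.15 in WIN1SRDX. MYB106SRDX was below all other arrays, and WIN1SRDX overlapped wild type. MYB106SRDX changed by -3.63 ± 0.62 (adjusted p = 0.000686) against wild type and by -3.25 ± 0.62 (adjusted p = 0.00194) against WIN1SRDX. In WIN1SRDX the change was -0.39 (-1.75 to 0.98). IAA17, also called AXR3, is known from a stabilised form that disturbs root and shoot growth. It stood at 2.19, 2.42, 2.74 and 2.39 in wild type and -2.60, -3.52, -4.52 and -2.72 in MYB106SRDX. In WIN1SRDX it stood at 1.68, 1.34 and 2.20 in replicates 1, 3 and 4, as the spot on replicate 2 was flagged as an outlier and left out (n = 3). MYB106SRDX lay far below both other groups, which overlapped narrowly. It changed by -5.78 ± 0.39 (adjusted p = 3.93e-06) against wild type and by -5.08 ± 0.42 (adjusted p = 2.01e-05) against WIN1SRDX, whose own change was -0.69 (-1.64 to 0.25) and passed in a fit of only those 2 groups (adjusted p = 0.0470).

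Among these genes are 3 pairs that are direct neighbours among protein-coding genes in RefSeq: IAA3 and IAA17 on chromosome 1, IAA2 and IAA7 on chromosome 3, and IAA14 and IAA1 on chromosome 4. IAA2 and IAA7 had a like profile, with both lines low and the lines not separated by the test. IAA3 and IAA17 were both more than 5 log2 units down in MYB106SRDX, while in WIN1SRDX IAA3 fell and IAA17 did not pass. IAA1 and IAA14 also parted in WIN1SRDX, where IAA1 changed by -2.65 and IAA14 by -0.39. The differences between the genes of a pair were not tested.

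IAA8 (AT2G22670), IAA9 (AT5G65670) and IAA27 (AT4G29080) are close relatives, and each fell in MYB106SRDX. IAA8 stood at 4.61, 4.77, 4.55 and 4.70 in wild type, 3.53, 3.49, 3.31 and 3.23 in MYB106SRDX and 4.16, 4.70, 4.21 and 4.37 in WIN1SRDX. MYB106SRDX was the lowest group on every array, and WIN1SRDX overlapped wild type. It changed by -1.26 ± 0.13 (adjusted p = 2.79e-05) against wild type and -0.97 ± 0.13 (adjusted p = 0.000261) against WIN1SRDX, whose own change of -0.30 (-0.59 to -0.01) passed without WIN1SRDX replicate 2 (adjusted p = 0.0220). A second IAA8 probe had means of 3.61 in wild type, 2.07 in MYB106SRDX and 3.18 in WIN1SRDX, the same order of groups. IAA9, which acts in leaf shape and vascular patterning, stood at 3.63, 3.79, 3.67 and 3.64 in wild type, 2.46, 3.21, 2.27 and 2.84 in MYB106SRDX and 3.36, 2.64, 3.31 and 3.46 in WIN1SRDX. Both lines lay below wild type and overlapped each other. The MYB106SRDX change was -0.99 ± 0.22 (adjusted p = 0.00361), a call lost with median scaling (-0.45, adjusted p = 0.123). WIN1SRDX changed by -0.49 (-0.98 to 0.00) and the lines differed by -0.50 (-0.99 to -0.01, adjusted p = 0.0931), a difference that passed without MYB106SRDX replicate 2 or WIN1SRDX replicate 2 (adjusted p from 0.0212 to 0.0234) and with quantile normalization (adjusted p = 0.0412). IAA27 stood at 1.08, 1.26, 0.78 and 1.03 in wild type, -0.39, -1.84, -1.03 and -0.49 in MYB106SRDX and -0.16, 0.75, 0.52 and -0.10 in WIN1SRDX. The 3 groups did not overlap, with WIN1SRDX in the middle. Its MYB106SRDX change was -1.97 ± 0.32 (adjusted p = 0.000472) and the lines differed by -1.19 ± 0.32 (adjusted p = 0.0115), or -0.70 with median scaling (adjusted p = 0.0503). The WIN1SRDX change of -0.78 (-1.48 to -0.08) passed without MYB106SRDX replicate 2 (adjusted p = 0.0245) and in a fit of only those 2 groups (adjusted p = 0.0266).

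IAA12 (AT1G04550) and IAA13 (AT2G33310) are close relatives that act with ARF5 (AT1G19850) in the embryo, and they parted here. IAA12, also called BODENLOS, stood at 0.35, 0.58, 0.61 and 0.72 in wild type, 0.42, 0.08, 0.13 and 0.34 in MYB106SRDX and 0.76, 1.09, 0.94 and 0.89 in WIN1SRDX. WIN1SRDX was above every wild-type array, and MYB106SRDX overlapped the lowest of them. It changed by -0.32 ± 0.12 (adjusted p = 0.0433) and 0.36 ± 0.12 (adjusted p = 0.0419) against wild type, and the lines differed by -0.68 ± 0.12 (adjusted p = 0.00125). Both calls against wild type were close to the threshold. The MYB106SRDX one was lost without MYB106SRDX replicate 2 or 3, WIN1SRDX replicate 3 or 4, or wild-type replicate 2, 3 or 4 (adjusted p from 0.0534 to 0.120) and its sign turned with median scaling, to 0.22. It was also lost in the authors' deposited table (adjusted p = 0.0606), with dim probes kept (adjusted p = 0.0591) and in a fit of only those 2 groups (adjusted p = 0.0590). The WIN1SRDX one was lost without WIN1SRDX replicate 2, 3 or 4 or wild-type replicate 1, 2 or 3 (adjusted p from 0.0644 to 0.122), with normexp (adjusted p = 0.0533) and with dim probes kept (adjusted p = 0.0575). The difference between the lines was lost with median scaling alone (-0.19, adjusted p = 0.214). IAA13 stood at 2.14, 2.45, 2.29 and 2.36 in wild type, -0.09, 0.57, -1.25 and -0.48 in MYB106SRDX and 1.3, 1.66, 1.47 and 1.54 in WIN1SRDX. The groups stood in 3 separate ranges with MYB106SRDX lowest. Its changes were -2.62 ± 0.30 (adjusted p = 5.33e-05) against wild type and -1.80 ± 0.30 (adjusted p = 0.000895) against WIN1SRDX. In WIN1SRDX it changed by -0.82 (-1.48 to -0.15, adjusted p = 0.0589), which passed without MYB106SRDX replicate 2 or 3 (adjusted p from 0.0116 to 0.0143), and also with normexp (adjusted p = 0.0443), with quantile normalization (adjusted p = 0.0485) and in a fit of only those 2 groups (adjusted p = 0.00123).

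IAA18 (AT1G51950), IAA26 (AT3G16500) and IAA28 (AT5G25890) form a subfamily in which each gene moved its own way. IAA28, a repressor of lateral root founder cells, stood at 0.43, -0.08, 0.44 and 0.39 in wild type, -3.84, -0.77, -3.73 and -2.65 in MYB106SRDX and 0.28, 0.30, 0.19 and 0.33 in WIN1SRDX. MYB106SRDX was below all other arrays, with replicate 2 nearest to them, while WIN1SRDX lay within the wild-type range. It changed by -3.04 ± 0.54 (adjusted p = 0.000917) against wild type and by -3.02 ± 0.54 (adjusted p = 0.00137) against WIN1SRDX. In WIN1SRDX the change was -0.02 (-1.22 to 1.18). IAA18, known from stabilised forms that disturb embryo and lateral root formation, stood at 1.91, 1.94, 1.99 and 1.95 in wild type, 2.32, 2.30, 2.55 and 2.42 in MYB106SRDX and 2.33, 2.40, 2.07 and 2.25 in WIN1SRDX. Every array of both lines was above the wild-type range. It rose by 0.46 ± 0.10 (adjusted p = 0.00282) and by 0.32 ± 0.10 (adjusted p = 0.0295), and the lines differed by 0.14, or by 0.63 with median scaling (adjusted p = 0.00361). The WIN1SRDX call was lost without WIN1SRDX replicate 1 or 2 or any 1 of the wild-type arrays (adjusted p from 0.0566 to 0.0765), with normexp (adjusted p = 0.0580) and with median scaling (adjusted p = 0.0849). IAA26 did not pass in any of the 3 comparisons, with 0.21 (-0.27 to 0.68) in MYB106SRDX, -0.04 (-0.51 to 0.44) in WIN1SRDX and 0.25 (-0.23 to 0.72) between the lines. The last of these passed without WIN1SRDX replicate 3 (adjusted p = 0.0466). With median scaling the first was 0.75 (adjusted p = 0.00976) and the last 0.74 (adjusted p = 0.0116), so that both passed.

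IAA10 (AT1G04100) and IAA11 (AT4G28640) were not among the fallers in MYB106SRDX. IAA10, which acts in the embryo's suspensor, stood at 0.30, 0.35, 0.31 and 0.50 in wild type, 0.23, 0.95, -0.24 and 0.62 in MYB106SRDX and -0.39, -0.43, -0.37 and -0.02 in WIN1SRDX. WIN1SRDX was below wild type on every array and MYB106SRDX spread on both sides of it. The WIN1SRDX change was -0.67 ± 0.22 (adjusted p = 0.0366) and the lines differed by 0.69 ± 0.22 (adjusted p = 0.0248). The first call was lost without WIN1SRDX replicate 1, 2 or 3 or any 1 of the wild-type arrays (adjusted p from 0.0673 to 0.0903), with median scaling (adjusted p = 0.0816) and in the authors' deposited table (adjusted p = 0.123). The second was lost without MYB106SRDX replicate 2 or 4 or WIN1SRDX replicate 1, 2 or 3 (adjusted p from 0.0522 to 0.0621), in the authors' deposited table (adjusted p = 0.117) and in a fit of only those 2 groups (adjusted p = 0.0762). MYB106SRDX changed by 0.03 (-0.45 to 0.51) against wild type. IAA11 did not pass in any comparison: its changes were 0.23 (-0.13 to 0.58), -0.03 (-0.38 to 0.32) and 0.26 (-0.10 to 0.61). Without WIN1SRDX replicate 2 the first and the last passed (adjusted p = 0.0483 and 0.00521). Both also passed with median scaling, at 0.76 (adjusted p = 0.00575) and 0.75 (adjusted p = 0.00764).

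IAA20 (AT2G46990) and IAA30 (AT3G62100) to IAA34 (AT1G15050) are known to lack a complete degron, so that they are less readily degraded with auxin than other members. In MYB106SRDX 5 of these 6 fell (28.6% of all genes), and in WIN1SRDX 3 fell (15.2%) and IAA31 (AT3G17600) rose. Several were near background in MYB106SRDX, and their sizes there depend on the background correction. IAA30 stood at -2.55, -2.48, -2.84 and -3.07 in wild type, -5.86, -7.71, -8.60 and -6.55 in MYB106SRDX, where it was well above background on 2 of 4 arrays, and -4.32, -4.04, -4.96 and -4.53 in WIN1SRDX. The groups did not overlap. Its changes were -4.45 ± 0.49 (adjusted p = 4.14e-05), -1.73 ± 0.49 (adjusted p = 0.0208) and, between the lines, -2.71 ± 0.49 (adjusted p = 0.00142). With normexp they were -1.74, -1.13 and -0.60, and all passed. The WIN1SRDX call was lost without WIN1SRDX replicate 3 or wild-type replicate 1 or 2 (adjusted p from 0.0535 to 0.0563). IAA32 (AT2G01200) stood at -2.76, -2.19, -2.95 and -2.54 in wild type, -6.62, -6.12, -8.19 and -8.74 in MYB106SRDX, with 1 of 4 arrays well above background, and -4.70, -4.84, -4.80 and -4.71 in WIN1SRDX. The groups stood apart and the 4 WIN1SRDX arrays were close together. It changed by -4.81 ± 0.49 (adjusted p = 2.32e-05) and -2.15 ± 0.49 (adjusted p = 0.00698), and the lines differed by -2.65 ± 0.49 (adjusted p = 0.00154), a difference lost with normexp background correction (-0.43, adjusted p = 0.174). With normexp the changes against wild type were -1.79 and -1.36. IAA20 stood at -4.05, -4.26, -3.82 and -4.07 in wild type, -5.28, -5.81, -5.64 and -4.23 in MYB106SRDX and -4.36, -2.80, -4.40 and -3.68 in WIN1SRDX. MYB106SRDX replicate 4 lay within the wild-type range and its other arrays below it. The MYB106SRDX change was -1.19 ± 0.40 (adjusted p = 0.0267), lost without MYB106SRDX replicate 1, 2 or 3 or wild-type replicate 1, 3 or 4 (adjusted p from 0.0514 to 0.0688) and with normexp (-0.35), quantile normalization (-0.67) and median scaling (-0.65). The lines differed by -1.43 ± 0.40 (adjusted p = 0.0140). That call was lost with normexp (-0.56, adjusted p = 0.115), quantile normalization (-0.96, adjusted p = 0.0731), median scaling (-0.94, adjusted p = 0.0570) and in a fit of only the 2 lines (adjusted p = 0.0502). WIN1SRDX changed by 0.24 (-0.64 to 1.11) against wild type.

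IAA31 stood at -6.69, -6.26, -6.01 and -6.18 in wild type and at -4.16, -4.33, -4.99 and -4.29 in WIN1SRDX, where every array was higher. In MYB106SRDX it was well above background on none of 4 arrays, with measured values of -8.57, -9.32, -9.10 and -9.30. It rose in WIN1SRDX by 1.84 ± 0.23 (adjusted p = 0.000316). In MYB106SRDX it was at least 1.65-fold lower than in wild type (adjusted p = 6.67e-06) and at least 5.92-fold lower than in WIN1SRDX (adjusted p = 3.91e-07). Such a bound divides the brighter group's mean by the lowest signal well above background on the dim arrays, or the probe's own signal where that was higher. The first call was lost with normexp background correction (-0.02, adjusted p = 0.951), with which the difference between the lines was -0.88 (adjusted p = 0.00707), smaller than the bound, and the WIN1SRDX change 0.86. IAA33 (AT5G57420), which acts in the stem cell niche of the root tip, was likewise well above background on none of the MYB106SRDX arrays, at measured values of -9.06, -7.31, -9.04 and -8.97. It stood at -6.85, -6.26, -5.36 and -5.93 in wild type and -6.30, -3.89, -4.05 and -6.51 in WIN1SRDX, where replicates 2 and 3 were higher than all wild-type arrays and replicates 1 and 4 were not. In MYB106SRDX it was at least 1.87-fold lower than in wild type (adjusted p = 0.00890), a call lost with normexp (-0.09) and with a floor at the detection limit (-0.91). Against WIN1SRDX it was at least 3.53-fold lower (adjusted p = 0.00215), a call lost with normexp (-0.59). WIN1SRDX changed by 0.92 (-0.54 to 2.37). Replicates 2 and 3 of WIN1SRDX were also the arrays of that line with the highest summed flower markers, 11.8 and 8.61 against 1.20 and 0.517. The part of that difference in the IAA33 values was not tested.

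IAA34, the closest relative of IAA32, was the exception among the 6 in MYB106SRDX. It stood at -4.33, -4.43, -4.77 and -4.91 in wild type, -3.81, -3.38, -4.82 and -6.16 in MYB106SRDX and -6.82, -7.43, -5.88 and -5.23 in WIN1SRDX, where it was well above background on 3 of 4 arrays. All WIN1SRDX arrays were below wild type, while MYB106SRDX spread on both sides. The WIN1SRDX change was -1.73 ± 0.60 (adjusted p = 0.0479) and the lines differed by 1.80 ± 0.60 (adjusted p = 0.0329). The first call was lost without MYB106SRDX replicate 1 or 3, WIN1SRDX replicate 1, 2 or 3, or any 1 of the wild-type arrays (adjusted p from 0.0517 to 0.116). It was also lost with normexp (-0.55, adjusted p = 0.170), quantile normalization (adjusted p = 0.0570), median scaling (adjusted p = 0.0565), dim probes kept (adjusted p = 0.0593) and in the authors' deposited table (adjusted p = 0.0698). The second was lost without MYB106SRDX replicate 1, 2 or 3 or WIN1SRDX replicate 1 or 2 (adjusted p from 0.0505 to 0.0888), in the authors' deposited table (adjusted p = 0.0541) and in a fit of only the 2 lines (adjusted p = 0.0887). With normexp it was 0.83 (adjusted p = 0.0408). MYB106SRDX changed by 0.07 (-1.26 to 1.39) against wild type.

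Of the 5 activating ARFs, 3 fell and 1 rose in MYB106SRDX (28.6% and 23.6% of all genes), with log2 fold changes between -1.76 and 1.1. In WIN1SRDX 2 fell and 1 rose (15.2% and 17.4% of all genes), between -1.1 and 0.88. ARF5, also called MONOPTEROS, sets up the embryonic axis and the vasculature. It stood at -0.20, 0.21, -0.28 and 0.02 in wild type, 0.77, 0.65, 1.89 and 0.84 in MYB106SRDX and 0.58, 1.12, 0.90 and 0.68 in WIN1SRDX. Both lines were above every wild-type array, and MYB106SRDX replicate 3 was the highest. It rose by 1.1 ± 0.26 (adjusted p = 0.00433) and by 0.88 ± 0.26 (adjusted p = 0.0227), and the lines differed by 0.22 (-0.34 to 0.78), or by 0.71 with median scaling (adjusted p = 0.0405). The WIN1SRDX call was lost without WIN1SRDX replicate 2 or 3 or wild-type replicate 1 or 3 (adjusted p from 0.0524 to 0.0629). ARF6 (AT1G30330) and ARF8 (AT5G37020) act together in flower maturation and hypocotyl growth and are both targets of the microRNA miR167. ARF6 stood at 0.66, 0.57, 0.32 and 0.32 in wild type, -1.35, -1.28, -1.41 and -1.14 in MYB106SRDX and -1.09, -0.32, -0.56 and -0.54 in WIN1SRDX. The groups did not overlap, and MYB106SRDX was lowest. Its changes were -1.76 ± 0.16 (adjusted p = 1.25e-05), -1.1 ± 0.16 (adjusted p = 0.000748) and, between the lines, -0.66 ± 0.16 (adjusted p = 0.00711), the last lost with median scaling (-0.17). ARF8 stood at -0.82, -0.49, -0.86 and -0.77 in wild type, -1.76, -2.10, -1.94 and -1.95 in MYB106SRDX and -1.31, 0.13, -0.14 and -0.42 in WIN1SRDX. MYB106SRDX was below all other arrays, and in WIN1SRDX replicate 1 lay below the wild-type range and the other 3 above it. It changed by -1.20 ± 0.26 (adjusted p = 0.00266) against wild type and -1.50 ± 0.26 (adjusted p = 0.00102) against WIN1SRDX. The WIN1SRDX change of 0.30 (-0.27 to 0.86) passed without replicate 1 of that line (adjusted p = 0.0181).

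ARF7 and ARF19 (AT1G19220) act together in lateral root formation and tropic growth. ARF19 stood at -1.67, -1.61, -1.88 and -1.88 in wild type, -3.01, -3.26, -2.67 and -3.06 in MYB106SRDX and -2.41, -2.41, -2.47 and -2.32 in WIN1SRDX. The 3 groups lay apart, with WIN1SRDX in the middle. Its changes were -1.23 ± 0.13 (adjusted p = 2.70e-05), -0.64 ± 0.13 (adjusted p = 0.00371) and, between the lines, -0.59 ± 0.13 (adjusted p = 0.00385), the last lost with median scaling (-0.10) and quantile normalization (-0.25). ARF7 did not pass in any comparison, with -0.18 (-0.39 to 0.02) in MYB106SRDX, -0.23 (-0.44 to -0.03) in WIN1SRDX and 0.05 (-0.15 to 0.26) between the lines. With median scaling its MYB106SRDX value turned to 0.35 (adjusted p = 0.0280) and the difference between the lines became 0.54 (adjusted p = 0.00375). Without WIN1SRDX replicate 4 its WIN1SRDX change passed (adjusted p = 0.0441).

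**Figure D3:**
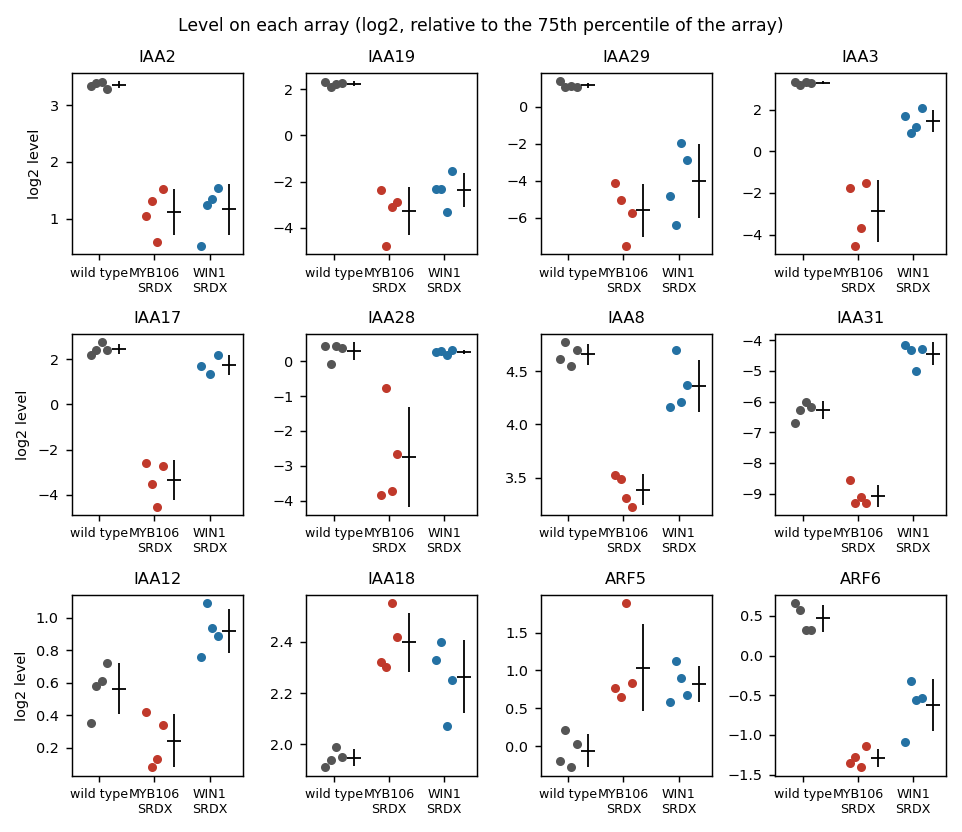
Log2 level on each array for 12 of the genes (75th percentile of an array at 0), with each dot an array and the bar beside it the group mean ± SD. In the plots of IAA2, IAA19 and IAA29 both lines lie below wild type and overlap each other, in those of IAA17, IAA28 and IAA8 only MYB106SRDX lies apart, and in those of IAA18 and ARF5 both lines lie above wild type.

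The 3 tests sorted the 33 genes into 8 patterns. The 33 include the 8 members that missed the background mark on at least 1 array. Among those 8 are IAA5, IAA6, IAA29, IAA30 and IAA32, which fell in both lines. IAA6 and IAA29 met the mark on every array of wild type alone, so they were tested only through the group where they were high. Beside each count stands the share of all 20267 genes tested with the same calls, and the comparisons share arrays, so the calls are not independent. In all, 14 (42.4%) fell in both lines, as did 9.17% of all genes. Of these, 8 (24.2% of the members, 2.40% of all genes) were lower still in MYB106SRDX than in WIN1SRDX (IAA1, IAA3, IAA4, IAA16, IAA30, IAA32, ARF6 and ARF19), while for 6 (18.2%, 6.23% of all genes) no difference between the lines passed the test (IAA2, IAA5, IAA6, IAA7, IAA19 and IAA29). Another 9 (27.3%, 13.2% of all genes) fell in MYB106SRDX against both other groups and did not pass in WIN1SRDX against wild type: IAA8, IAA13, IAA14, IAA17, IAA20, IAA27, IAA28, IAA33 and ARF8. IAA9 passed as lower in MYB106SRDX against wild type and in no other comparison (4.72% of all genes). IAA12 and IAA31 fell in MYB106SRDX and rose in WIN1SRDX (1.48% of all genes), and IAA10 and IAA34 fell in WIN1SRDX and were higher in MYB106SRDX than there (3.4%). IAA18 and ARF5 rose in both lines, with no difference called between them (6.97% of all genes). IAA11, IAA26 and ARF7 passed no test, against 31.5% of all genes. Over all alternative settings and arrays left out, 23 of the 28 MYB106SRDX calls held throughout, 11 of the 20 WIN1SRDX calls (IAA1, IAA2, IAA5, IAA6, IAA7, IAA19, IAA29, IAA31, IAA32, ARF6 and ARF19) and 12 of the 21 between the lines.

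Upstream of these genes, 1 of 6 auxin receptors and 1 of 5 TOPLESS corepressors passed in each line against wild type, where 52.2% (MYB106SRDX) and 32.6% (WIN1SRDX) of all genes did. AFB1, a receptor known for fast responses in roots, fell in MYB106SRDX by 2.44 on the log2 scale (SE 0.25, adjusted p = 2.45e-05) and was at 0.01 ± 0.25 in WIN1SRDX. AFB3 rose in WIN1SRDX by 0.64 ± 0.14 (adjusted p = 0.00562) and was at -0.11 ± 0.14 in MYB106SRDX, or 0.43 with median scaling. The other 4 of the 6 receptors passed in neither line with the main scaling. With median scaling TIR1 (0.90, adjusted p = 0.000711) and AFB2 (0.56, adjusted p = 0.0336) passed as higher in MYB106SRDX. Of the 5 corepressors only TPR3 passed against wild type, rising by 0.79 ± 0.18 in MYB106SRDX (adjusted p = 0.00400) and 0.63 ± 0.18 in WIN1SRDX (adjusted p = 0.0212). The second call was lost without WIN1SRDX replicate 3 or wild-type replicate 2 or 4 (adjusted p from 0.0559 to 0.0623). In MYB106SRDX against wild type, TPL (0.82, adjusted p = 0.000584), TPR1 (0.53, adjusted p = 0.0116) and TPR2 (0.42, adjusted p = 0.0453) also passed with median scaling. The low counts of receptors and corepressors in MYB106SRDX thus depend on the scaling. Between the lines no corepressor passed limma's test, and none did at an unadjusted p under 0.05. With median scaling TPL (0.56, adjusted p = 0.00744), TPR2 (0.43, adjusted p = 0.0430), TPR3 (0.65, adjusted p = 0.00676) and TPR4 (0.51, adjusted p = 0.0276) passed between the lines. Of the 10 other ARFs, mostly known as repressors, 2 rose and 3 fell in each line. In MYB106SRDX that is close to the shares of all genes, 23.6% higher and 28.6% lower, and in WIN1SRDX those were 17.4% and 15.2%. ARF9 rose by 0.93 ± 0.15 and 0.46 ± 0.15, ARF1 fell (-0.85 ± 0.14 and -0.57 ± 0.14) and ARF2 fell (-0.66 ± 0.11 and -0.56 ± 0.11). The ARF2 probe used had means of 2.2 in wild type, 1.53 in MYB106SRDX and 1.63 in WIN1SRDX. A second ARF2 probe had means of 1.86, 0.6 and 1.3, the same order of groups with the lines further apart. With median scaling the MYB106SRDX calls of ARF1 (-0.31) and ARF2 (-0.13) were lost, and with the authors' deposited table the WIN1SRDX call of ARF2 (adjusted p = 0.0509). The WIN1SRDX call of ARF9 was lost without WIN1SRDX replicate 1 or 3 or wild-type replicate 1, 3 or 4 (adjusted p from 0.0736 to 0.0927) and with slide as a block (adjusted p = 0.0580).

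Auxin supply genes differed between the lines. Of 11 tested auxin transport genes, 10 fell in MYB106SRDX (28.6% of all genes) and 10 were lower there than in WIN1SRDX (24.2%), whereas in WIN1SRDX against wild type 3 rose (17.4%) and 1 fell (15.2%). LAX3, an influx carrier that acts in lateral root emergence, changed by -2.67 ± 0.19 in MYB106SRDX (adjusted p = 2.52e-06) and 0.60 ± 0.19 in WIN1SRDX (adjusted p = 0.0299). PIN7, an efflux carrier, changed by -2.50 ± 0.28 (adjusted p = 4.33e-05) and 0.29 ± 0.28 (adjusted p = 0.446). PIN2, the efflux carrier of root gravitropism, changed by -4.38 ± 0.51 (adjusted p = 5.86e-05) and 1.64 ± 0.51 (adjusted p = 0.0311), with 2 of 4 MYB106SRDX arrays well above background and -1.74 there with normexp. The WIN1SRDX call of LAX3 was lost without WIN1SRDX replicate 1 or 4 or wild-type replicate 1, 2 or 4 (adjusted p from 0.0537 to 0.0841) and with median scaling (adjusted p = 0.0543), and that of PIN2 without WIN1SRDX replicate 1, 3 or 4 or wild-type replicate 1, 2 or 4 (adjusted p from 0.0635 to 0.0808) and with slide as a block (adjusted p = 0.0707). Of the 12 root markers, 10 fell in MYB106SRDX and 11 were lower there than in WIN1SRDX, while in WIN1SRDX against wild type 4 rose and 3 fell. The part of the root markers in the transport values was not tested. Of 11 tested synthesis genes, 6 fell and 2 rose in MYB106SRDX, where 28.6% and 23.6% of all genes did, and 3 fell and 1 rose in WIN1SRDX, where 15.2% and 17.4% did. YUC4, a flavin monooxygenase of auxin synthesis, was well above background on none of the wild-type arrays. Its level was higher by at least 9.73-fold in MYB106SRDX (adjusted p = 5.67e-05) and by at least 3.67-fold in WIN1SRDX (adjusted p = 0.00326). Across the alternative settings these changes were as small as 1.68 and 0.70 on the log2 scale, smaller than the bounds, and both calls held. YUC3, a relative of YUC4, was well above background on none of the MYB106SRDX arrays and was at least 11.0-fold lower there (adjusted p = 6.32e-05). Across the alternative settings that change was as small as -1.37, smaller than the bound, and the call held. In WIN1SRDX YUC3 changed by -2.61 ± 0.49 (adjusted p = 0.00278), or -1.3 with normexp. YUC5, well above background on 1 of 4 MYB106SRDX arrays, changed by -4.52 ± 0.56 (adjusted p = 8.52e-05) and -1.84 ± 0.56 (adjusted p = 0.0271). With normexp these were -1.37 and -0.96, and both passed. The second was lost without any 1 of 6 arrays, WIN1SRDX replicates 1 to 3 and wild-type replicates 1, 3 and 4 (adjusted p from 0.0517 to 0.0736), and with slide as a block (adjusted p = 0.0557).

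Other auxin-induced genes did not all follow the Aux/IAA genes. GH3 enzymes join auxin to amino acids, and of 6 tested 3 rose and 1 fell in MYB106SRDX (23.6% and 28.6% of all genes). GH3.5 rose by 1.31 ± 0.24 (adjusted p = 0.000953) and GH3.6 by 1.24 ± 0.24 (adjusted p = 0.00141), while GH3.1 changed by -3.62 ± 0.63 (adjusted p = 0.000778). GH3.1 was well above background on 1 of 4 MYB106SRDX arrays, and its change was -0.85 with normexp (adjusted p = 0.0269) and -4.31 without MYB106SRDX replicate 2. The remaining riser, GH3.2 (0.88, adjusted p = 0.0397), lost its call in 7 of 12 fits with 1 array left out (adjusted p from 0.0627 to 0.0848). It was also lost in 3 of the 13 other alternatives. In WIN1SRDX none of the 6 passed limma's test, and 1 did at an unadjusted p under 0.05. In a fit of only WIN1SRDX and wild type, GH3.6 passed (0.62, adjusted p = 0.0131). Of 7 other tested response genes, 4 fell and 1 rose in MYB106SRDX (28.6% and 23.6% of all genes) and 2 fell and 2 rose in WIN1SRDX (15.2% and 17.4%). ACS4, an enzyme of ethylene precursor synthesis, was well above background on none of the MYB106SRDX arrays, at least 28.3-fold lower there than in wild type (adjusted p = 7.58e-06), and changed by -4.71 ± 0.51 in WIN1SRDX (adjusted p = 0.000143), with 2 of 4 arrays above background. With normexp the changes were -2.36 and -2.43, the first smaller than the bound. ARGOS, a promoter of organ growth, changed by -2.60 ± 0.28 (adjusted p = 3.34e-05) and -1.74 ± 0.28 (adjusted p = 0.00117). LBD16, a lateral root gene downstream of ARF7 and ARF19, rose by 1.06 ± 0.30 (adjusted p = 0.0127) and 2.47 ± 0.30 (adjusted p = 0.000278).

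**Figure D4:**
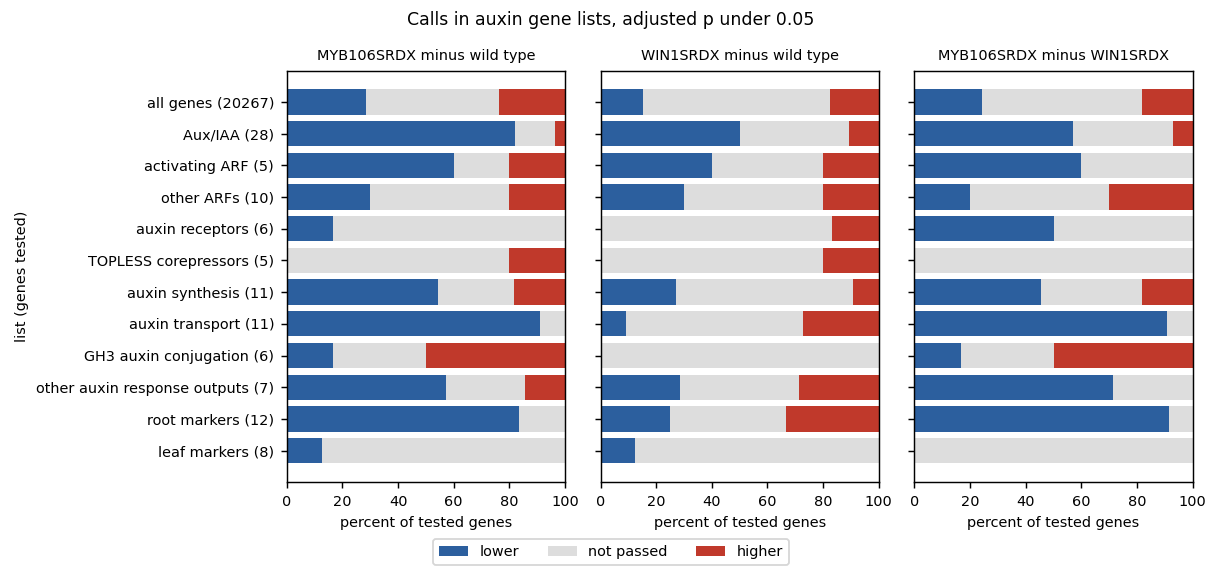
Percent of the tested genes of each list that were lower, higher or not called at an adjusted p under 0.05 in the 3 comparisons, with the number tested in brackets and all genes at the top. Aux/IAA genes, auxin transport genes and root markers have the widest lower share in MYB106SRDX, while in WIN1SRDX the Aux/IAA genes have a lower share of 50%, the transport genes 9.09% and the root markers 25%.

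In MYB106SRDX 83.3% of the root markers and 82.1% of the tested Aux/IAA genes fell, and their part in the Aux/IAA values was not tested. In WIN1SRDX 25% of the root markers and 50% of the tested Aux/IAA genes fell, and 4 of the 12 root markers rose. Their part in the Aux/IAA values was not tested there either. Probes of close relatives may take up each other's RNA, and the specificity of these probes was not tested.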

How the data were processed

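The 12 samples were hybridised 1 per array in 1 colour to Agilent arrays and scanned images were turned into numbers by Agilent Feature Extraction (version 9.1.3.1 in the submitters' processing notes). The scanner files hold background-corrected processed intensities made by the authors' scanner software, per the file headers. The authors' deposited value table holds ratios: each column is the processed intensity divided by 1 constant per group, 1082.6 for MYB106SRDX, 995.65 for WIN1SRDX and 1264 for wild type, found by setting it against the scanner values, with column medians from 0.0598 to 0.137. Its scale is linear and its genes are not centred, and how the constants were set was not stated in what was used here.

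The log2 of the deposited processed intensity was taken minus the 75th percentile of the array. Control spots and outlier spots were left out, and the probe of highest mean stood for a locus. Of 25665 loci, the 20267 well above background on every array of 1 group or more were tested with limma 3.58.1 in R 4.3.3, in 1 fit of 3 groups with 3 comparisons and Benjamini-Hochberg adjustment over all loci. Bounds use the lowest signal well above background. The fit was tested on simulated data. The members and the other gene lists were chosen with earlier results of these data known. Per-array values are given for members that passed in at least 1 comparison, and of each other auxin list up to 3 genes of lowest p that passed against wild type are named. Loci were looked up in RefSeq (TAIR10.1 assembly), whose symbols differ from the names used here for some genes, such as SHY2 for IAA3 and MP for ARF5. No source used here gives the genome build of the array's design, so no coordinates are printed. The alternatives were normexp background correction with an offset of 50, quantile normalization, median scaling, the authors' table, other filters and probe rules, blocks, other fits and leaving out each array. Normexp was run on median spot signals in place of the planned mean signals. The number of arrays limits the precision.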

Additional observations from a re-analysis of the deposited data

Results flagged for a closer look

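Groups were taken where the gene was well above background on all 4 arrays. The highest or lowest value there was marked where its gap to the nearest other value, divided by the range, was above Dixon's 95% critical value for 4 samples. Of 89 groups tested, 7 were marked, and chance marks about 1 group in 20. IAA4 stood at 2.72 on WIN1SRDX replicate 1, above the other 3 arrays at 2.49 to 2.51. IAA5 stood at -2.70 on WIN1SRDX replicate 4, above the others at -4.77 to -4.47. IAA7 stood at 3.34 on wild-type replicate 2, below the others at 3.59 to 3.61. On WIN1SRDX replicate 4 IAA10 was at -0.02, above the others at -0.43 to -0.37. On WIN1SRDX replicate 2 IAA11 was at -0.28, above the others at -1.09 to -0.97. On wild-type replicate 2 IAA28 was at -0.08, below the others at 0.39 to 0.44. On MYB106SRDX replicate 3 ARF5 was at 1.89, above the others at 0.65 to 0.84.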

How the results depend on the processing

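Leaving out 1 array at a time, the number of members passing ran from 26 to 29 in MYB106SRDX against wild type, from 12 to 22 in WIN1SRDX against wild type and from 19 to 22 between the lines. The number of all genes passing ran from 9163 to 10776, from 4834 to 7454 and from 7663 to 8623. With only the loci well above background on all 12 arrays, 13 members passed in WIN1SRDX against wild type, of 25 tested in place of 33. No other alternative moved a count of passing members or of all genes by over 1.5 times. Among values with a call before or after the change, median scaling turned the sign of IAA12 (0.22), ARF7 (0.35), TPR1 (0.53) and TPR2 (0.42) in MYB106SRDX against wild type, and of TPR2 (0.43) and ARF2 (0.39) between the lines, where it moved the median of all genes up. Of all 1263 member values under settings other than an array left out, 16 turned sign. Only IAA12 among them had passed before, only ARF7 passed after, and no main value exceeded 0.32 in size. With 1 array left out, 21 of 1188 turned sign, from values up to 0.24 in size, with no call before or after. Other auxin genes turned sign with no call either way, with median scaling among them AFB4 (0.20), AFB5 (0.16), TPR4 (0.31) and PID (0.46) in MYB106SRDX against wild type. The replicate numbers of the labels were not taken to pair the samples. Of 12 pairs of arrays with the same number, 1 had a correlation of deviations over 0.1 (range -0.164 to 0.195), WIN1SRDX replicate 2 with wild-type replicate 2. Pairs with different numbers ran from -0.187 to 0.179. With the replicate number as a block, 27, 16 and 20 members and 10031, 5860 and 8013 of all genes passed. The calls lost were IAA12 in both lines against wild type (adjusted p = 0.0794 and 0.0813), IAA4 (0.0573), IAA18 (0.0730) and IAA34 (0.0986) in WIN1SRDX, and IAA34 between the lines (0.0736). Of 421 member values in MYB106SRDX against wild type under the 13 other alternatives, 405 kept their direction and call. In WIN1SRDX 393 of 421 did, and between the lines 395 of 421. Leaving out arrays, 382, 338 and 379 of 396 did. IAA31 and IAA33, well above background on none of the MYB106SRDX arrays, have bounds there. IAA6, IAA32, GH3.1 and YUC5 were above it on 1 of 4 of those arrays and IAA30 on 2 of 4, so that their sizes rest in part on signals near background. Whole seedlings, 4 arrays a group and an unstated number of transgenic lines limit every value.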
